A study of Mus musculus with 16 samples.

Results

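Solute carriers are membrane proteins that move small molecules across the plasma membrane or the membranes of organelles. Genes of this kind outside the mitochondrial Slc25a family were taken by their symbols, Slc followed by a number, the letter a and a number. The rule found 139 of the 11710 genes in the count table, and 38 Slc25a genes were set aside. Of the 139, 138 passed the filter on low counts and were tested. The rule uses names alone, so 5 of the 138 are not carriers but carry a carrier's name (for example Slc9a3r2, a scaffold protein that binds carriers). Messenger RNA was measured in mouse rotator cuff muscle in 16 samples, 4 in each of 4 groups. Unoperated C57BL/6J mice (BL6) and unoperated MRL/MpJ mice (MRL) were the controls, and operated mice of both strains had a tenectomy, the removal of tendon, together with denervation of the muscle. BL6 is a common inbred reference strain, MRL is an inbred strain studied for its healing of ear wounds, and the design asks whether their responses to a rotator cuff tear differ. The series text names the infraspinatus and the sample labels the supraspinatus. Age, sex and time after surgery are not given in the sources used here. Tendon removal and denervation were applied together, so their effects cannot be told apart, and the unoperated mice had no sham operation named in the labels. The labels list separate samples but do not say that each came from a separate animal, so p-values measure the spread between these samples.

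Muscle takes up glucose through facilitative transporters, of which the insulin-responsive Slc2a4 (GLUT4) cycles between internal vesicles and the surface. Lactate made by glycolysis leaves and enters fibres with a proton through monocarboxylate carriers, which need the chaperones Bsg or Emb to reach the membrane. Amino acid carriers feed protein synthesis and amino acid sensing at the lysosome, ion carriers set cell volume, pH and calcium together with pumps, and metal carriers move iron, zinc and copper, which enzymes need and which are toxic in excess.

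Total counts per sample ranged from 24323862 to 43552964. Levels are given as CPM, counts per 1000000 counts of the sample after scaling of library sizes, and a gene was called where edgeR's quasi-likelihood test gave a Benjamini-Hochberg adjusted p under 0.05 over all 11709 genes tested. Markers of the labelled tissue were high throughout and lower after surgery. The summed level of 6 muscle fibre genes ranged from 99100 to 139730 CPM before and from 42525 to 114200 CPM after surgery in BL6 (4 of 6 called lower, none higher), and from 92030 to 104220 CPM before and from 56840 to 74986 CPM after surgery in MRL (3 of 6 called lower, none higher). The summed level of 6 adipocyte markers lay between 1122 and 1492 CPM in unoperated and between 1986 and 2959 CPM in operated samples of both strains, and 5 of the 6 were called higher in each. For 5 endothelial markers the ranges were 226 to 399 and 314 to 755 CPM (4 called higher in BL6, 5 in MRL), and for 5 Schwann cell markers 68.3 to 128 and 118 to 531 CPM (5 and 4). Of the 7 macrophage markers, 4 were called higher in BL6 and 1 in MRL. The sum of 6 fibroblast markers ranged from 653 to 1567 CPM before and from 1058 to 7477 CPM after surgery in BL6 (3 called higher), and from 1383 to 2579 CPM before and from 1831 to 3827 CPM after surgery in MRL (none called). No erythroid marker was called after surgery in either strain. None of these markers, nor any of the 5 erythroid markers, was at 0 in any sample. Their part in the carriers' values was not tested. In bulk tissue, fewer cells of a type and less RNA per cell cannot be told apart. Unoperated MRL replicate 1 and operated BL6 replicate 4 held high macrophage sums (134 and 208 CPM, against 19.6 to 97.0 CPM in the other samples). Mitochondrially encoded genes took 11.0% to 14.2% of counts in unoperated samples, 11.8% in operated MRL replicate 4 and 17.4% to 24.9% in the other operated samples. Counts of calls are therefore also given without these 3 libraries.

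After surgery, carriers rose and fell in both strains. Log2 fold changes are operated against unoperated, with the SE after ±, and where a pair is given the first is BL6 and the second MRL. In BL6, 40 of the 138 carrier genes rose and 47 fell (63% called), against 67.9% of all genes tested. In MRL, 28 rose and 37 fell (47.1% called), against 45% of all genes. By direction, 35.1% of all genes tested rose and 32.8% fell in BL6, and 22.3% rose and 22.7% fell in MRL. Among the 138 carriers 57 were called in both strains, 23 higher and 34 lower in both, and none in opposite directions. Over all 11709 genes tested, 4783 were called in both strains, 4774 of them in the same direction. Agreement in direction was therefore not particular to the carriers. The change was larger in size in BL6 in 42 of those 57 (73.7%), beside 83.5% of the 4774 genes of the whole table that were called in both strains in the same direction. Without the 3 libraries that stand apart, 86 carriers were called in BL6 (33 higher and 53 lower) and 87 in MRL (37 higher and 50 lower). In that setting 7914 (BL6) and 7303 (MRL) of all 11709 genes were called, against 7950 and 5272 with all 16 samples. The MRL count thus went up over all genes too. Among the carriers named here, leaving these libraries out ended the BL6 calls of Slc1a3, Slc7a5, Slc7a6os and Slc29a1 and the MRL call of Slc47a1. In BL6, Slc20a2 and Slc37a2 were called lower without them, where all 16 samples gave no call. In MRL, Slc1a4, Slc2a1, Slc3a2, Slc7a5, Slc7a7, Slc11a1 and Slc15a3 were called higher and Slc4a7, Slc8a1, Slc12a2, Slc19a1, Slc23a2, Slc27a1 and Slc39a14 lower without them, where all 16 samples gave no call. Pearson's r between the strains' log2 fold changes was 0.875 over the 138 genes and 0.850 over all genes, where genes of one library are not independent of each other. The median log2 fold change of the carriers was -0.05 (BL6) and -0.04 (MRL), against 0.04 and 0.01 for all genes. The authors' deposited table called 81 carriers in BL6 and 72 in MRL at a false discovery rate under 0.05, of which 80 and 61 were shared with the calls here, all in the same direction.

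The most abundant carriers mostly fell in both strains, and in BL6 the least abundant mostly rose. The 10 carriers with a mean of at least 100 CPM over the 16 samples were called lower in 7 cases and higher in 1 (Slc38a3) in each strain. Of the 28 carriers under 5 CPM, 18 rose and 3 fell in BL6, and 9 rose and 3 fell in MRL. Those shares under 5 CPM are 64.3% higher and 10.7% lower in BL6 and 32.1% and 10.7% in MRL. Among all genes tested under 5 CPM, 51.2% rose and 15.7% fell in BL6, and 29.4% rose and 9.71% fell in MRL, so that the MRL shares of the carriers were close to those of all genes. Among all genes of at least 100 CPM, 22.9% rose and 47.9% fell in BL6, and 15% rose and 36% fell in MRL. The muscle fibre markers, themselves abundant, were lower in the same groups, and their part in these shares was not tested. Some low genes may have passed the filter through the group where they were high, so these shares describe only the genes tested. The carriers together took 0.462% ± 0.0222 of counts before and 0.420% ± 0.0419 after surgery in BL6 (SD, n = 4), and 0.515% ± 0.00878 before and 0.423% ± 0.0592 after surgery in MRL.

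**Figure D1:**
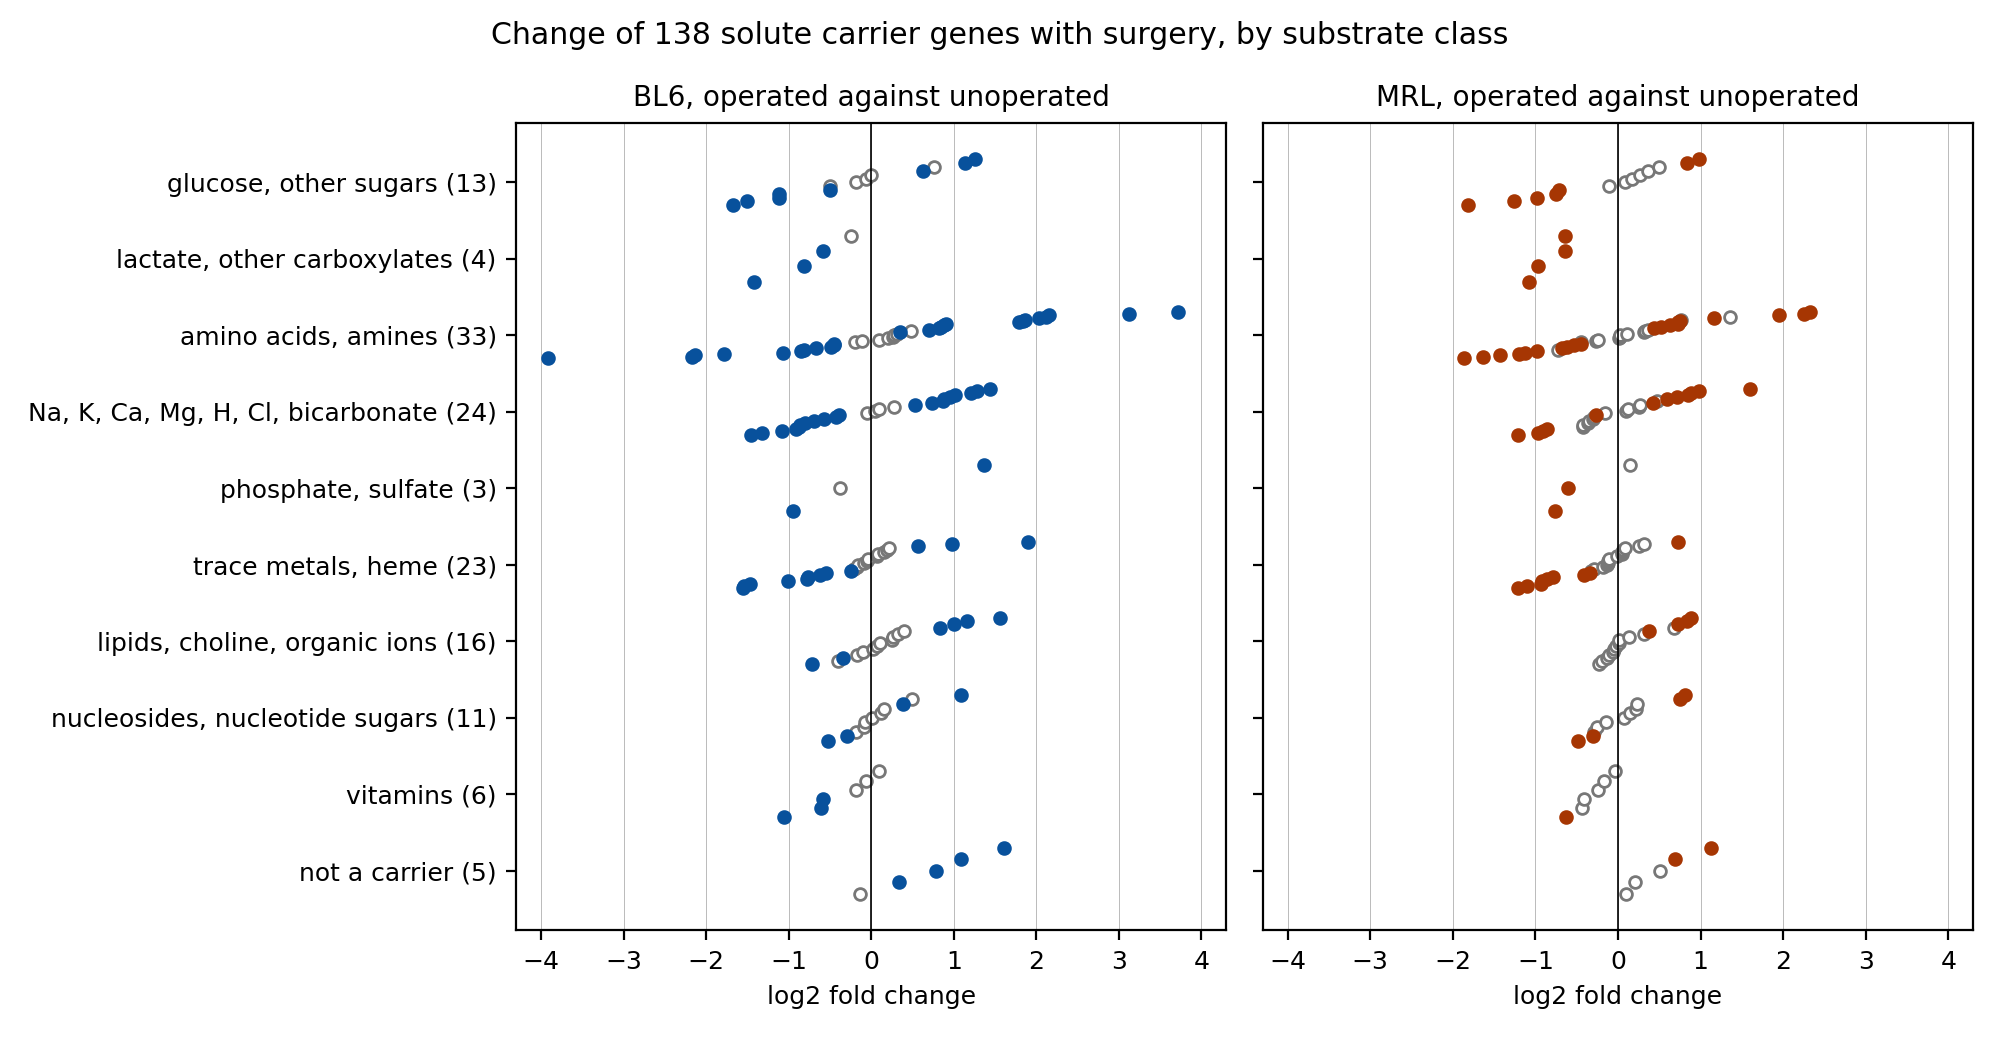
Log2 fold change of each of the 138 carrier genes after surgery, by substrate class with the number of genes in brackets, in BL6 (left) and MRL (right). Filled points passed the test at an adjusted p under 0.05 and open points did not; all 4 genes of the lactate class lie left of 0 in both strains, while the amino acid class spans from -3.91 to 3.72 in BL6.

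Promoter sequences were read from RefSeq (GRCm38.p6), which held 105 of the 138 genes, as the 250 bases before to 50 after the start site. Shown are the basal glucose carrier Slc2a1 and the lactate carriers Slc16a1 and Slc16a3, since Slc2a1 and Slc16a3 are textbook targets of hypoxia signalling, with every match to ACGTG or GCGTG on either strand in capitals. This core lies inside the E-box CACGTG, where matches on both strands overlap. The windows are chr4:119108495-119108794, chr3:104638414-104638713 and chr11:120948817-120949116, all on the plus strand.
Slc2a1: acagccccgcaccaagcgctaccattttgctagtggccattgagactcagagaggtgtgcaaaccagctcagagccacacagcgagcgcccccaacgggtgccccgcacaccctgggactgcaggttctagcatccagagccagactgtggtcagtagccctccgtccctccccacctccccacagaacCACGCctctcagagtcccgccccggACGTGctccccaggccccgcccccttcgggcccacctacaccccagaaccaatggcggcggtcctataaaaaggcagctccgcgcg
Slc16a1: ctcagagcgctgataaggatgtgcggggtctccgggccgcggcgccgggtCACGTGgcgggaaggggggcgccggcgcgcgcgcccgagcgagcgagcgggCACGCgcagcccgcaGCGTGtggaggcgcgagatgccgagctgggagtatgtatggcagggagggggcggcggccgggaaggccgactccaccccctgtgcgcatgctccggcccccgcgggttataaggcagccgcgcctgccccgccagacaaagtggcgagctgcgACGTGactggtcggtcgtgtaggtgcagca
Slc16a3: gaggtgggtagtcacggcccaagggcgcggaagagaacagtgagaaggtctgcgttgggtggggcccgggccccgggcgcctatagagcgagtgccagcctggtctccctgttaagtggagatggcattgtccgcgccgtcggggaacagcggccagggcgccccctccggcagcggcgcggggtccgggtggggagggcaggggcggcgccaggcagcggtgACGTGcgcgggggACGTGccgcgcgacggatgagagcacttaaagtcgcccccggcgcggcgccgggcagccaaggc
Slc2a1 held 2 matches, Slc16a1 held 5 and Slc16a3 held 2. For shares, a gene was counted once if any of its promoters held a match, and some genes had several promoters. The same letters occurred in 70.5% of the 105 carriers, 68.1% of all genes tested with a promoter and 46.7% of all 27025 genes with a promoter. They also occurred in 68.8% of the 16 carriers with a promoter that rose in both strains and in 65.2% of the 23 that fell in both. A match describes these letters only.

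Sugar carriers changed in both directions. Of 13 tested, 3 rose and 5 fell in BL6 (23.1% and 38.5%), beside 35.1% and 32.8% of all genes, so that the share that fell was near that of all genes. In MRL, 2 rose and 5 fell (15.4% and 38.5%), beside 22.3% and 22.7% of all genes. The class had medians of -0.19 and 0.08 (0.04 and 0.01 over all genes), so that in MRL the median and the balance of calls differ in sign. Slc2a4, the insulin-responsive transporter (chr11:69942539-69948188), had the highest level per exonic length of all 138 carriers in every group, at 235 CPM per kb before and 166 after surgery in BL6 and 250.0 before and 153 after surgery in MRL. Slc2a4 measured 773, 864, 848 and 790.2 CPM in the unoperated and 665, 709.9, 607 and 331 CPM in the operated samples of BL6. In MRL, Slc2a4 measured 833, 926, 822 and 897 CPM in the unoperated and 557, 575, 432 and 564 CPM in the operated samples. Every operated sample lay below every unoperated one of its strain, and operated BL6 replicate 4 was lowest. Slc2a4 fell by 0.50 ± 0.19 (SE, log2 scale, adjusted p = 0.0255) in BL6 and by 0.71 ± 0.19 (adjusted p = 0.00795) in MRL. The BL6 fall was 0.31 without operated BL6 replicate 4 (adjusted p = 0.0292), and the call was lost without unoperated BL6 replicate 2 or 3 (adjusted p 0.0531 to 0.0560).

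Slc37a4, which carries glucose-6-phosphate into the endoplasmic reticulum (chr9:44396852-44402968), measured 152, 164, 156 and 174 CPM in the unoperated and 38.9, 87.4, 47.7 and 28.6 CPM in the operated samples of BL6. In MRL, Slc37a4 measured 193, 182, 185 and 165 CPM in the unoperated and 58.5, 80.6, 69.7 and 92.7 CPM in the operated samples. The groups did not overlap within either strain, and the log2 fold changes were -1.67 ± 0.25 (adjusted p = 6.74e-05) in BL6 and -1.27 ± 0.25 (adjusted p = 0.00209) in MRL. Slc2a3 (GLUT3, a high-affinity glucose transporter) measured 8.29, 9.05, 13.3 and 14 CPM in the unoperated and 3.55, 5.54, 2.72 and 3.87 CPM in the operated samples of BL6. In MRL, Slc2a3 measured 11.3, 14, 17.8 and 12.8 CPM in the unoperated and 2.40, 2.77, 4.86 and 5.74 CPM in the operated samples. It was lower in every operated sample, with log2 fold changes of -1.51 ± 0.29 (adjusted p = 3.44e-04) and -1.82 ± 0.29 (adjusted p = 7.11e-04). Slc2a12 (GLUT12) fell, at -1.11 ± 0.20 (adjusted p = 2.65e-04) in BL6 and -0.98 ± 0.20 (adjusted p = 0.00258) in MRL, and Slc45a4, of a family described as sugar and proton carriers, by -1.12 ± 0.18 (adjusted p = 9.39e-05) and -0.75 ± 0.18 (adjusted p = 0.00477).

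Slc2a1 (GLUT1), the basal glucose transporter whose promoter is shown above (chr4:119108711-119137983), moved the other way in BL6. Slc2a1 measured 10.4, 15.4, 12.8 and 10.6 CPM in the unoperated and 21.3, 12.7, 20.9 and 21.3 CPM in the operated samples of BL6. Operated replicate 2 lay within the unoperated range and the other 3 operated samples above it. The rise was 0.63 ± 0.20 (adjusted p = 0.0124) on the log2 scale. In MRL, Slc2a1 measured 12.5, 9.43, 10.6 and 9.43 CPM in the unoperated and 16.4, 13, 15.6 and 9.03 CPM in the operated samples, the groups overlapped, and the difference of 0.36 ± 0.20 (adjusted p = 0.153) was not called; without operated MRL replicate 4 it was 0.51 (adjusted p = 0.0345). Slc50a1, a sugar efflux carrier of the SWEET family, rose in both strains, by 1.14 ± 0.19 (adjusted p = 1.64e-04) and 0.83 ± 0.19 (adjusted p = 0.00455). Slc2a8 (GLUT8, an intracellular transporter) was not called in either strain, at 0.00 ± 0.11 and -0.11 ± 0.11. Levels of Slc2a1 were 3.51, 5.43, 2.99 and 3.86 CPM per kb in the same order as given for Slc2a4.

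Of 14 genes that act with glucose transport, 3 rose and 8 fell in BL6, and 1 rose and 7 fell in MRL. The shares called were 78.6% and 57.1%, beside 67.9% and 45% of all genes tested. Both Rab-GTPase regulators that hold GLUT4 vesicles inside the cell fell, Tbc1d1 at -1.5 ± 0.24 (adjusted p = 9.15e-05) and -1.57 ± 0.24 (adjusted p = 6.60e-04) and Tbc1d4 at -1.33 ± 0.19 (adjusted p = 4.23e-05) and -0.91 ± 0.18 (adjusted p = 0.00243). The vesicle proteins Rab10 (-1.67 and -0.92), Sort1 (-1.55 and -1.05) and Lnpep (-1.02 and -0.42) and the insulin receptor Insr (-1.38 and -0.65) also fell in both strains. Among hexokinases, which trap glucose inside the cell, Hk1 rose by 1.11 ± 0.17 (adjusted p = 9.09e-05) and 0.82 ± 0.17 (adjusted p = 0.00302), while Hk2, the main muscle form, fell in MRL, at -1.44 ± 0.26 (adjusted p = 0.00136), and measured -0.59 ± 0.26 (adjusted p = 0.0510) in BL6, which was not called. Irs1 (-1.53) and Akt2 (-0.76), which relay the insulin signal, fell in BL6 and were not called in MRL (-0.19 and -0.35). The membrane fusion proteins Stx4a (0.28) and Vamp2 (0.35) rose in BL6 and were not called in MRL (0.15 and 0.14).

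Monocarboxylate carriers fell. All 4 tested had negative log2 fold changes in both strains, and 3 were called in BL6 and 4 in MRL (medians -0.70 and -0.80). Over all genes, 32.8% and 22.7% were called lower, and the medians were 0.04 and 0.01. Slc16a3 (MCT4), the lactate exporter of glycolytic fibres (chr11:120948480-120960868), measured 229, 206, 227 and 199 CPM in the unoperated and 132, 169, 118 and 72.2 CPM in the operated samples of BL6. In MRL, Slc16a3 measured 245, 284, 196 and 234 CPM in the unoperated and 84.3, 132, 112 and 163 CPM in the operated samples. No operated sample reached the lowest unoperated one of its strain, and the log2 fold changes were -0.81 ± 0.22 (adjusted p = 0.00523) and -0.96 ± 0.23 (adjusted p = 0.00462). Slc16a1 (MCT1), which serves lactate uptake in oxidative fibres (chr3:104638668-104658462), measured 74.8, 70.6, 62.3 and 66.0 CPM in the unoperated and 49.8, 53.7, 42.7 and 36.4 CPM in the operated samples of BL6. In MRL, Slc16a1 measured 92.3, 102, 74.1 and 136 CPM in the unoperated and 64.1, 79.2, 45.4 and 70.8 CPM in the operated samples, so that the groups were apart in BL6 and overlapped in MRL, where operated replicate 2 lay above unoperated replicate 3. The log2 fold changes were -0.58 ± 0.19 (adjusted p = 0.0123) and -0.64 ± 0.19 (adjusted p = 0.0135), and the MRL call was lost without unoperated MRL replicate 4 (adjusted p 0.0524). On the scale of CPM per kb, Slc16a3 stood at 40.4 and Slc16a1 at 15.5 in unoperated BL6.

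Slc16a6 (MCT7, linked to ketone body export) fell, at -1.41 ± 0.24 (adjusted p = 1.59e-04) and -1.08 ± 0.24 (adjusted p = 0.00347). Its exons share 21.5% of their bases with Amz2 on the opposite strand, and whether the counting used strand is not given in the sources used here. Slc16a9 (MCT9) was called lower in MRL (-0.64 ± 0.23, adjusted p = 0.0319) and not in BL6 (-0.24 ± 0.23, adjusted p = 0.355), with a difference between the strains of -0.40 ± 0.32 (adjusted p = 0.527). That MRL call was lost without unoperated MRL replicate 1, 2 or 3 or operated MRL replicate 1, 2 or 3 (adjusted p 0.0581 to 0.0924). Of the 4 partner genes, the chaperone Bsg fell in MRL (-0.59 ± 0.15, adjusted p = 0.00614), the chaperone Emb rose in BL6 (3.07 ± 0.61, adjusted p = 4.78e-04), and the lactate dehydrogenases Ldha (-0.31 and -0.25) and Ldhb (0.27 and -0.16) were not called in either strain. The last member of this class, the dicarboxylate carrier Slc13a3, was removed by the filter. It had 1 to 20 counts in 15 libraries and 2639 counts (80.7 CPM) in unoperated MRL replicate 1. With no filter, its MRL surgery value of -6.62 (adjusted p = 0.0105) rested on that library.

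**Figure D2:**
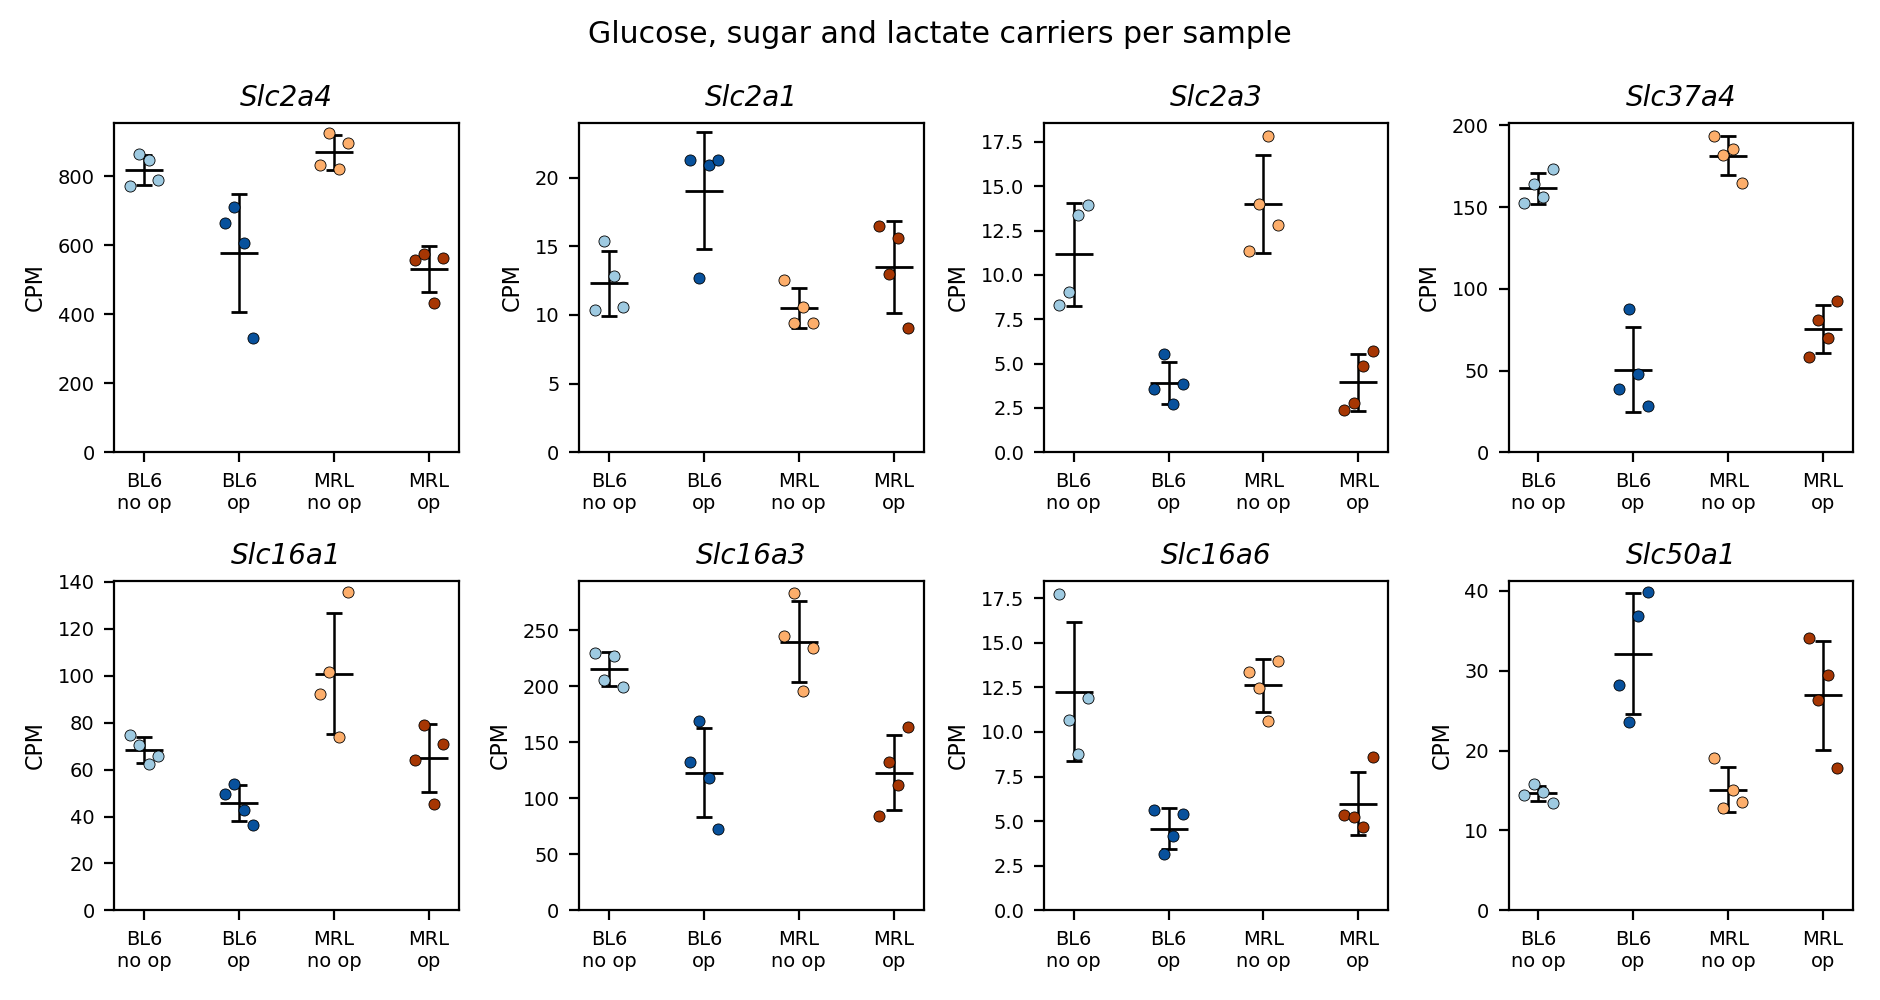
CPM of 8 sugar and lactate carriers in each of the 16 samples (points, 4 per group, linear axis from 0), with the group mean and SD as a bar. Slc2a4, Slc37a4, Slc2a3 and Slc16a3 lie lower in every operated sample of a strain than in its unoperated samples, while Slc50a1 lies higher in BL6.

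Amino acid carriers split in direction. Of 33 tested, 14 rose and 11 fell in BL6 (75.8% called), and 10 rose and 10 fell in MRL (60.6%), beside the shares of all genes given above, with medians of 0.27 and 0.02. In BL6, the carriers of this class that fell furthest at a mean of at least 5 CPM were Slc7a2, Slc38a4 and Slc16a10, and in MRL they were Slc7a2, Slc38a4 and Slc6a9. Slc7a2 (CAT2), which takes up arginine and lysine (chr8:40862396-40922308), measured 97.4, 79.1, 83.0 and 94.4 CPM in the unoperated and 18.3, 24.9, 15.1 and 20.1 CPM in the operated samples of BL6. In MRL, Slc7a2 measured 66.1, 50.3, 75.8 and 59.3 CPM in the unoperated and 26.4, 19.6, 11.9 and 23.2 CPM in the operated samples. Groups were far apart in both strains, at -2.17 ± 0.21 (adjusted p = 8.36e-06) and -1.63 ± 0.21 (adjusted p = 3.11e-04) on the log2 scale. Slc38a4 (SNAT4), a sodium-coupled carrier of neutral amino acids (chr15:96994820-97055956), measured 136, 91.3, 82.7 and 102 CPM in the unoperated and 19.6, 47.9, 15.1 and 11.5 CPM in the operated samples of BL6. In MRL, Slc38a4 measured 92.0, 108, 81.2 and 67.9 CPM in the unoperated and 15.3, 32.0, 28.9 and 52.9 CPM in the operated samples. Here too the groups were separate, with changes of -2.13 ± 0.41 (adjusted p = 3.68e-04) and -1.43 ± 0.40 (adjusted p = 0.0103). Slc16a10 (TAT1), a carrier of aromatic amino acids, fell, at -1.78 ± 0.25 (adjusted p = 4.50e-05) and -1.12 ± 0.25 (adjusted p = 0.00342).

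Carriers of amino acid derivatives that muscle holds in bulk also fell. Slc6a8, the creatine transporter (chrX:73673150-73682502), measured 173, 172, 162 and 158 CPM in the unoperated and 124, 141, 121 and 99.5 CPM in the operated samples of BL6. In MRL, Slc6a8 measured 156, 192, 189 and 219.6 CPM in the unoperated and 99.6, 118, 101 and 154 CPM in the operated samples. Both strains showed no overlap, with changes of -0.46 ± 0.15 (adjusted p = 0.0137) and -0.68 ± 0.15 (adjusted p = 0.00343). Slc6a6, the taurine transporter, fell, at -0.86 ± 0.16 (adjusted p = 3.57e-04) in BL6 and -0.44 ± 0.16 (adjusted p = 0.0362) in MRL; the MRL value was -0.72 (adjusted p = 5.72e-05) without the 3 libraries that stand apart, and its call was lost without unoperated MRL replicate 2, 3 or 4 or operated MRL replicate 1, 2 or 3 (adjusted p 0.0529 to 0.109). Slc6a9 (GlyT1, a glycine transporter) fell, at -0.67 ± 0.21 (adjusted p = 0.0117) and -1.20 ± 0.21 (adjusted p = 0.00133), and its exons share 27.8% of their bases with Ccdc24 on the opposite strand. Slc43a1 (LAT3), a carrier of branched-chain amino acids, fell, at -1.07 ± 0.23 (adjusted p = 9.71e-04) and -0.61 ± 0.23 (adjusted p = 0.0447), and the MRL call was lost without unoperated BL6 replicate 2 or 4, operated BL6 replicate 3, unoperated MRL replicate 1, 2 or 3 or operated MRL replicate 1 or 2 (adjusted p 0.0502 to 0.140).

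Among the carriers that rose, Slc1a5 (ASCT2), an exchanger of glutamine and other neutral amino acids (chr7:16781340-16798274), measured 25.2, 21.8, 21.5 and 23.1 CPM in the unoperated and 78.8, 41.0, 60.6 and 137 CPM in the operated samples of BL6. In MRL, Slc1a5 measured 21.0, 17.1, 18.5 and 21.4 CPM in the unoperated and 29.8, 31.1, 47.5 and 66.2 CPM in the operated samples. All operated samples lay above all unoperated ones, by 1.80 ± 0.31 (adjusted p = 1.61e-04) and 1.16 ± 0.30 (adjusted p = 0.00777). Slc36a2 (PAT2), a proton-coupled carrier of glycine and proline known from fat and muscle, measured 1.80, 1.12, 1.45 and 1.52 CPM in the unoperated and 6.22, 2.09, 5.66 and 37.1 CPM in the operated samples of BL6. In MRL, Slc36a2 measured 2.75, 1.64, 1.71 and 2.19 CPM in the unoperated and 4.63, 2.74, 11.9 and 22.1 CPM in the operated samples. Operated BL6 replicate 4 stood far above the rest, and the groups overlapped only in MRL, by operated replicate 2. The log2 fold changes were 3.12 ± 0.77 (adjusted p = 0.00241) and 2.32 ± 0.75 (adjusted p = 0.0208); without operated BL6 replicate 4 the BL6 value was 1.66 (adjusted p = 0.0185), and the MRL call was lost without unoperated MRL replicate 2 or 3 or operated MRL replicate 4 (adjusted p 0.0564 to 0.0750). The summed adipocyte markers were higher in the same groups, and their part in this value was not tested.

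Slc38a3 (SNAT3), a glutamine carrier (chr9:107650634-107669530), was the amino acid carrier with the highest mean and measured 155, 148, 159 and 154 CPM in the unoperated and 347, 315, 271 and 174 CPM in the operated samples of BL6. In MRL, Slc38a3 measured 143, 119, 127 and 149 CPM in the unoperated and 179.6, 170.4, 202 and 176 CPM in the operated samples. It rose by 0.85 ± 0.16 (adjusted p = 3.93e-04) in BL6 and 0.43 ± 0.16 (adjusted p = 0.0402) in MRL with no overlap in either strain, and operated BL6 replicate 4 was the lowest of its group. The MRL call of Slc38a3 was lost without unoperated BL6 replicate 2, 3 or 4, unoperated MRL replicate 2 or 3 or operated MRL replicate 1, 2 or 3 (adjusted p 0.0503 to 0.110). Slc38a6 rose by 0.70 ± 0.22 (adjusted p = 0.0102) and 0.75 ± 0.22 (adjusted p = 0.0138), and its MRL call was lost without operated MRL replicate 3 (adjusted p 0.0515). The heavy chain Slc3a2, which escorts several light-chain carriers to the surface, rose by 0.35 ± 0.10 (adjusted p = 0.00645) in BL6 and measured 0.11 ± 0.10 (adjusted p = 0.373) in MRL, not called, or 0.23 (adjusted p = 0.0157) without the 3 libraries that stand apart. Its light chain Slc7a5 (LAT1, leucine uptake) rose by 0.82 ± 0.33 (adjusted p = 0.0348) in BL6, a call lost without unoperated BL6 replicate 1, 3 or 4 or operated BL6 replicate 1 or 4 (adjusted p 0.0514 to 0.192; 0.45 without operated BL6 replicate 4), and measured 0.36 ± 0.32 (adjusted p = 0.358) in MRL. Without the 3 libraries, Slc7a5 measured 0.43 (adjusted p = 0.158) in BL6 and 0.64 (adjusted p = 0.0498) in MRL. The light chain Slc7a6 rose in MRL (0.52 ± 0.16, adjusted p = 0.0180), a call lost without unoperated MRL replicate 4 or operated MRL replicate 1 or 3 (adjusted p 0.0565 to 0.0607), and was not called in BL6 (0.31 ± 0.16, adjusted p = 0.0936; without operated BL6 replicate 2 0.41, adjusted p = 0.0357).

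Several carriers that serve general amino acid supply were not called after surgery. Slc38a2 (SNAT2), which responds to amino acid shortage, measured 0.20 ± 0.30 and -0.44 ± 0.30 on the log2 scale. Slc7a1 (CAT1, the general arginine carrier) measured 0.48 ± 0.25 and 0.33 ± 0.24, and was called in BL6 without operated BL6 replicate 2, at 0.66 (adjusted p = 0.0169). Slc38a9, an arginine sensor of the lysosome, measured -0.12 ± 0.12 and 0.02 ± 0.12, and Slc7a8 (LAT2) 0.09 ± 0.27 and 0.01 ± 0.28. Among carriers under 5 CPM, Slc7a7 (a light chain also known from macrophages) rose in BL6 (2.15 ± 0.46, adjusted p = 9.12e-04) and was not called in MRL (0.76 ± 0.44, adjusted p = 0.161), except without unoperated MRL replicate 1 (adjusted p 0.00817). The neutral amino acid carrier Slc1a4 rose in BL6 (2.11 ± 0.58, adjusted p = 0.00471; 1.14, adjusted p = 0.0385 without operated BL6 replicate 4) and was not called in MRL (1.35 ± 0.56, adjusted p = 0.0594), except without operated BL6 replicate 2 or 4 or unoperated MRL replicate 1 (adjusted p 0.0127 to 0.0403). The glutamate carrier Slc1a3 rose in both strains, by 1.83 ± 0.56 (adjusted p = 0.00959) and 1.95 ± 0.57 (adjusted p = 0.0133), and its BL6 call was lost without operated BL6 replicate 4 (adjusted p 0.115; value 0.76).

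Slc15a3, a histidine and peptide carrier of lysosomes in immune cells, was highest in the pair of libraries with the highest macrophage sums. Its exons share 28.1% of their bases with Tmem132a on the opposite strand, and whether counting used strand is not given. Slc15a3 measured 0.841, 0.670, 0.555 and 0.325 CPM in the unoperated and 2.18, 1.28, 1.90 and 4.35 CPM in the operated samples of BL6. In MRL, Slc15a3 measured 11.0, 0.613, 0.452 and 0.894 CPM in the unoperated and 1.58, 1.21, 3.30 and 1.68 CPM in the operated samples. Unoperated MRL replicate 1, with 134 CPM of summed macrophage markers, stood above all 15 other samples. The log2 fold change was 2.03 ± 0.85 (adjusted p = 0.0455) in BL6 and -0.73 ± 0.79 (adjusted p = 0.458) in MRL, where it was 1.57 (adjusted p = 0.0168) without that library. The BL6 call was lost without unoperated BL6 replicate 1, 2, 3 or 4, operated BL6 replicate 1, 3 or 4 or operated MRL replicate 1, 2 or 4 (adjusted p 0.0513 to 0.141). Slc11a1, the metal carrier of macrophage phagosomes, had group means of 1.21 ± 0.464 and 4.48 ± 3.18 CPM in unoperated and operated BL6 (SD, n = 4) and 3.38 ± 3.29 and 4.01 ± 1.5 CPM in MRL, and rose in BL6 (1.90 ± 0.58, adjusted p = 0.00877; 1.25, adjusted p = 0.00305 without the 3 libraries that stand apart) while not called in MRL (0.25 ± 0.55, adjusted p = 0.721). The BL6 call of Slc11a1 was lost without operated BL6 replicate 4 (adjusted p 0.0542; value 1.26), and the MRL value was called without unoperated MRL replicate 1 (adjusted p 0.0425). The part of macrophage RNA in these values was not tested.

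Of 13 genes of amino acid sensing and the amino acid response, 5 rose and 4 fell in BL6, and 4 rose and 2 fell in MRL. The shares called, 69.2% and 46.2%, were near the 67.9% and 45% of all genes tested. The stress factors Atf5 (1.14 and 0.72), Ddit3 (1.51 and 0.65) and Trib3 (1.19 and 1.78) and the arginine sensor Castor1 (1.54 and 1.20) rose in both strains. Asns, which makes asparagine, rose in BL6 (1.51 ± 0.25, adjusted p = 1.14e-04) and measured 0.44 ± 0.23 (adjusted p = 0.128) in MRL. Chac1, which degrades glutathione, fell, at -2.50 ± 0.59 (adjusted p = 0.00169) and -1.69 ± 0.57 (adjusted p = 0.0261), and the kinase Mtor fell, at -0.64 and -0.35. Rptor (-0.95) and Rraga (-0.25), which tie that kinase to amino acids, fell in BL6 and were not called in MRL (-0.44 and -0.13). Atf4, Rragc, Sesn1 and Sesn2 were not called in either strain.

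Of 24 carriers of sodium, potassium, calcium, magnesium, protons, chloride and bicarbonate, 9 rose and 11 fell in BL6 (83.3% called), and 7 rose and 5 fell in MRL (50%). Among all genes tested, 67.9% were called in BL6 and 45% in MRL, so that the MRL share was near that of all genes. Both magnesium carriers tested fell. Slc41a1, a plasma membrane magnesium exporter (chr1:131827493-131848865), measured 89.2, 107, 148 and 144 CPM in the unoperated and 44.6, 46.3, 51.5 and 35.3 CPM in the operated samples of BL6. In MRL, Slc41a1 measured 76.5, 130.0, 129 and 128 CPM in the unoperated and 45.9, 40.9, 42.5 and 118 CPM in the operated samples. The BL6 groups were apart, while in MRL unoperated replicate 1 was low and operated replicate 4 lay within the unoperated range. The changes were -1.46 ± 0.31 (adjusted p = 7.99e-04) and -0.91 ± 0.31 (adjusted p = 0.0256); without operated MRL replicate 4 the MRL value was -1.43 (adjusted p = 1.21e-04), and its call was lost without unoperated MRL replicate 2, 3 or 4 or operated MRL replicate 1, 2 or 3 (adjusted p 0.0617 to 0.0842). Slc41a3 (chr6:90604725-90646412), of the same family, measured 179, 179.6, 159.7 and 158 CPM in the unoperated and 60.1, 87.4, 74.5 and 48.5 CPM in the operated samples of BL6. In MRL, Slc41a3 measured 135, 139, 123 and 116 CPM in the unoperated and 48.6, 54.7, 58.2 and 100.5 CPM in the operated samples. Its groups did not overlap in either strain, at -1.32 ± 0.21 (adjusted p = 9.60e-05) and -0.97 ± 0.21 (adjusted p = 0.00310).

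Slc12a2 (NKCC1), which brings sodium, potassium and chloride into the cell, measured 95.0, 75.2, 91.1 and 100.2 CPM in the unoperated and 41.4, 49.0, 40.8 and 39.6 CPM in the operated samples of BL6. In MRL, Slc12a2 measured 90.6, 121, 123 and 102 CPM in the unoperated and 103, 83.7, 81.3 and 87.2 CPM in the operated samples. Every operated BL6 sample lay below every other sample of the study, while the MRL groups overlapped. It fell, at -1.08 ± 0.13 (adjusted p = 1.67e-05) in BL6, and the MRL difference of -0.30 ± 0.13 (adjusted p = 0.0610) was not called, except without operated BL6 replicate 2, unoperated MRL replicate 1 or operated MRL replicate 1 (adjusted p 0.0244 to 0.0494). The outward potassium and chloride carriers rose instead. Slc12a4 (KCC1) rose by 0.87 ± 0.14 (adjusted p = 1.32e-04) and 0.42 ± 0.14 (adjusted p = 0.0257), with the MRL call lost without unoperated MRL replicate 2 or 3 or operated MRL replicate 3 (adjusted p 0.0613 to 0.0860), Slc12a7 (KCC4) by 0.95 ± 0.20 (adjusted p = 6.40e-04) and 0.88 ± 0.20 (adjusted p = 0.00366), and the related Slc12a9 by 1.01 ± 0.17 (adjusted p = 1.30e-04) and 0.71 ± 0.17 (adjusted p = 0.00459).

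Bicarbonate carriers split. Slc4a4 (NBCe1, sodium and bicarbonate) fell, at -0.88 ± 0.25 (adjusted p = 0.00606) and -1.22 ± 0.25 (adjusted p = 0.00253). Slc4a7 (NBCn1) fell in BL6, at -0.86 ± 0.18 (adjusted p = 8.71e-04), and measured -0.42 ± 0.18 (adjusted p = 0.0685) in MRL, where it was -0.64 (adjusted p = 0.00290) without operated replicate 4 and -0.53 (adjusted p = 0.0285) without unoperated replicate 1. Slc4a3 (AE3, an exchanger of chloride and bicarbonate) rose by 1.28 ± 0.27 (adjusted p = 7.88e-04) and 0.85 ± 0.27 (adjusted p = 0.0193), with the MRL call lost without unoperated MRL replicate 2, 3 or 4 or operated MRL replicate 3 (adjusted p 0.0503 to 0.0768). Slc26a10 rose by 1.44 ± 0.36 (adjusted p = 0.00280) and 1.59 ± 0.37 (adjusted p = 0.00436), from 10.9 ± 0.322 to 29.7 ± 9.68 CPM in BL6 and from 7.96 ± 2.38 to 24.1 ± 14.3 CPM in MRL, and Slc26a6, an anion exchanger, fell, at -0.69 ± 0.12 (adjusted p = 1.57e-04) and -0.86 ± 0.12 (adjusted p = 4.24e-04). Of the sodium and calcium exchangers, Slc8a1 (NCX1) fell in BL6, at -0.91 ± 0.20 (adjusted p = 8.67e-04), and measured -0.35 ± 0.20 (adjusted p = 0.151) in MRL, or -0.61 (adjusted p = 0.00555) without operated MRL replicate 4, and Slc8a3 (NCX3), the form known from muscle, was not called (-0.05 ± 0.32 and 0.48 ± 0.32).

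Among 11 pumps, carbonic anhydrases and kinases that work with these carriers, 2 rose and 6 fell in BL6, and 1 rose and 3 fell in MRL. The shares called were 72.7% and 36.4%, beside 67.9% and 45% of all genes tested. The calcium pumps Atp2a1 of the sarcoplasmic reticulum (-1.22 and -0.95) and Atp2b1 of the plasma membrane (-1.26 and -0.61) fell in both strains, as did carbonic anhydrase Car2 (-0.82 and -0.64). Car4, a carbonic anhydrase of the cell surface and of capillaries, rose by 2.10 ± 0.39 (adjusted p = 2.81e-04) and 1.92 ± 0.39 (adjusted p = 0.00227). Car3, an anhydrase of slow fibres and adipocytes, rose in BL6 (1.86), and the sodium pump subunit Atp1b1 (-0.48) and the kinases Wnk1 (-0.83) and Oxsr1 (-0.81), which switch chloride carriers, fell in BL6. None of these 4 was called in MRL, at 0.54, -0.42, -0.42 and -0.37. The kinase Stk39 was not called in either strain.

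Phosphate and sulfate carriers numbered 3, with 1 higher and 1 lower in BL6 and 2 lower in MRL. That is 66.7% called in each strain, beside 67.9% and 45% of all genes tested. Slc20a1 (PiT1), a sodium-coupled phosphate carrier (chr2:129198764-129211616), measured 27.1, 25.7, 27.9 and 26.4 CPM in the unoperated and 86.7, 75.6, 56.1 and 58.4 CPM in the operated samples of BL6. In MRL, Slc20a1 measured 27.1, 27.4, 50.3 and 73.3 CPM in the unoperated and 31.9, 43.6, 72.6 and 48.2 CPM in the operated samples. Operated BL6 samples all lay above unoperated ones, while in MRL unoperated replicates 3 and 4 were as high as operated samples. It rose by 1.37 ± 0.30 (adjusted p = 9.24e-04) in BL6 and measured 0.14 ± 0.29 (adjusted p = 0.703) in MRL, and the difference between strains was -1.23 ± 0.41 (adjusted p = 0.202). Its relative Slc20a2 (PiT2) fell in MRL, at -0.76 ± 0.21 (adjusted p = 0.00982), or -1.19 (adjusted p = 1.08e-05) without the 3 libraries that stand apart, and measured -0.38 ± 0.21 (adjusted p = 0.116) in BL6. Without operated MRL replicate 4, whose spread enters the same fit, the BL6 adjusted p was 0.0159. Slc26a2, the sulfate carrier, fell, at -0.95 ± 0.14 (adjusted p = 6.23e-05) and -0.61 ± 0.14 (adjusted p = 0.00414).

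Of 23 metal carriers, 3 rose and 9 fell in BL6 (13% and 39.1%), and 1 rose and 8 fell in MRL (4.35% and 34.8%). Among all genes the shares were 35.1% higher and 32.8% lower in BL6 and 22.3% and 22.7% in MRL, so that the share of metal carriers that fell in BL6 was near that of all genes. Slc40a1 (ferroportin), the iron exporter (chr1:45908068-45926523), measured 39.0, 38.2, 46.1 and 46.8 CPM in the unoperated and 13.6, 14.3, 13.5 and 16.6 CPM in the operated samples of BL6. In MRL, Slc40a1 measured 26.0, 39.8, 36.5 and 38.2 CPM in the unoperated and 11.1, 12.6, 12.5 and 24.6 CPM in the operated samples. Operated samples were lower throughout, at -1.55 ± 0.21 (adjusted p = 3.68e-05) and -1.20 ± 0.21 (adjusted p = 0.00122), and operated MRL replicate 4 was the highest of its group. Slc11a2 (DMT1), which imports ferrous iron (chr15:100387898-100425072), measured 44.9, 37.0, 40.4 and 42.5 CPM in the unoperated and 18.8, 24.2, 20.4 and 18.2 CPM in the operated samples of BL6. In MRL, Slc11a2 measured 41.8, 44.3, 39.8 and 48.8 CPM in the unoperated and 21.7, 26.2, 16.5 and 26.8 CPM in the operated samples. It fell with no overlap in either strain, at -1.01 ± 0.14 (adjusted p = 3.74e-05) and -0.94 ± 0.14 (adjusted p = 6.52e-04), so that exporter and importer were both lower. The copper importer Slc31a1 fell, at -0.78 ± 0.15 (adjusted p = 3.28e-04) and -0.86 ± 0.15 (adjusted p = 0.00102), and Slc30a2, a vesicular zinc carrier, at -1.47 ± 0.30 (adjusted p = 6.57e-04) and -1.10 ± 0.29 (adjusted p = 0.00790). Slc39a14 (ZIP14, zinc and iron import) was not called, at -0.16 ± 0.14 and -0.29 ± 0.14, but was in MRL without the 3 libraries that stand apart, at -0.38 (adjusted p = 0.0495). The zinc carrier Slc39a7 fell as well (-1.54 ± 0.32, adjusted p = 6.18e-04 and -0.93 ± 0.31, adjusted p = 0.0235; -1.47, adjusted p = 1.28e-04 in MRL without operated replicate 4, with the MRL call lost without unoperated MRL replicate 2 or 4 or operated MRL replicate 1, 2 or 3, adjusted p 0.0587 to 0.0741), but 80.7% of its exonic bases are shared with Gm20427 on the same strand.

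Slc30a1 (ZnT1), the zinc exporter that is a textbook target of the metal-sensing factor Mtf1, fell in BL6 (-0.24 ± 0.10, adjusted p = 0.0361), a call lost without unoperated BL6 replicate 1 or 4 or operated BL6 replicate 3 (adjusted p 0.0774 to 0.108), and measured 0.05 ± 0.10 (adjusted p = 0.675) in MRL. Its promoter (chr1:191906531-191906830, plus strand, GRCm38.p6, RefSeq) is shown with matches to TGCACNC or TGCGCNC, the core of the metal response element, on either strand in capitals.
Slc30a1: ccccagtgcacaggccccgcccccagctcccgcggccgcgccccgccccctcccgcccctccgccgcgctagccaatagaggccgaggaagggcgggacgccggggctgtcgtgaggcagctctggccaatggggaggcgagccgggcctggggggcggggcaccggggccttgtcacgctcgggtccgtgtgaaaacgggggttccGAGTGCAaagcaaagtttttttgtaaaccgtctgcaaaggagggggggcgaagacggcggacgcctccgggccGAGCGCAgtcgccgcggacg
It held 2 matches. Among genes with a promoter, 42.9% of the carriers and 40.8% of all genes tested had at least 1 match in any of their promoters. The metallothioneins Mt1 and Mt2, which bind zinc and are induced through the same element, rose in BL6 by 2.21 ± 0.26 (adjusted p = 1.75e-05) and 2.95 ± 0.41 (adjusted p = 4.28e-05) and measured 0.61 ± 0.25 (adjusted p = 0.0598) and 0.96 ± 0.39 (adjusted p = 0.0549) in MRL. Of the 7 metal partners, 4 rose and 2 fell in BL6, and 2 fell in MRL (85.7% and 28.6% called, beside 67.9% and 45% of all genes). The ferritin chains Fth1 (0.50) and Ftl1 (1.28), which store iron, rose in BL6, and the transferrin receptor Tfrc, which imports it, fell, at -1.70 ± 0.31 (adjusted p = 2.62e-04). Those 3 were not called in MRL (0.14, 0.34 and -0.74). The iron reductase Steap3 fell in both strains (-0.89 and -0.66), and Mtf1 fell in MRL (-0.57 ± 0.19, adjusted p = 0.0272) and measured -0.21 in BL6.

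**Figure D3:**
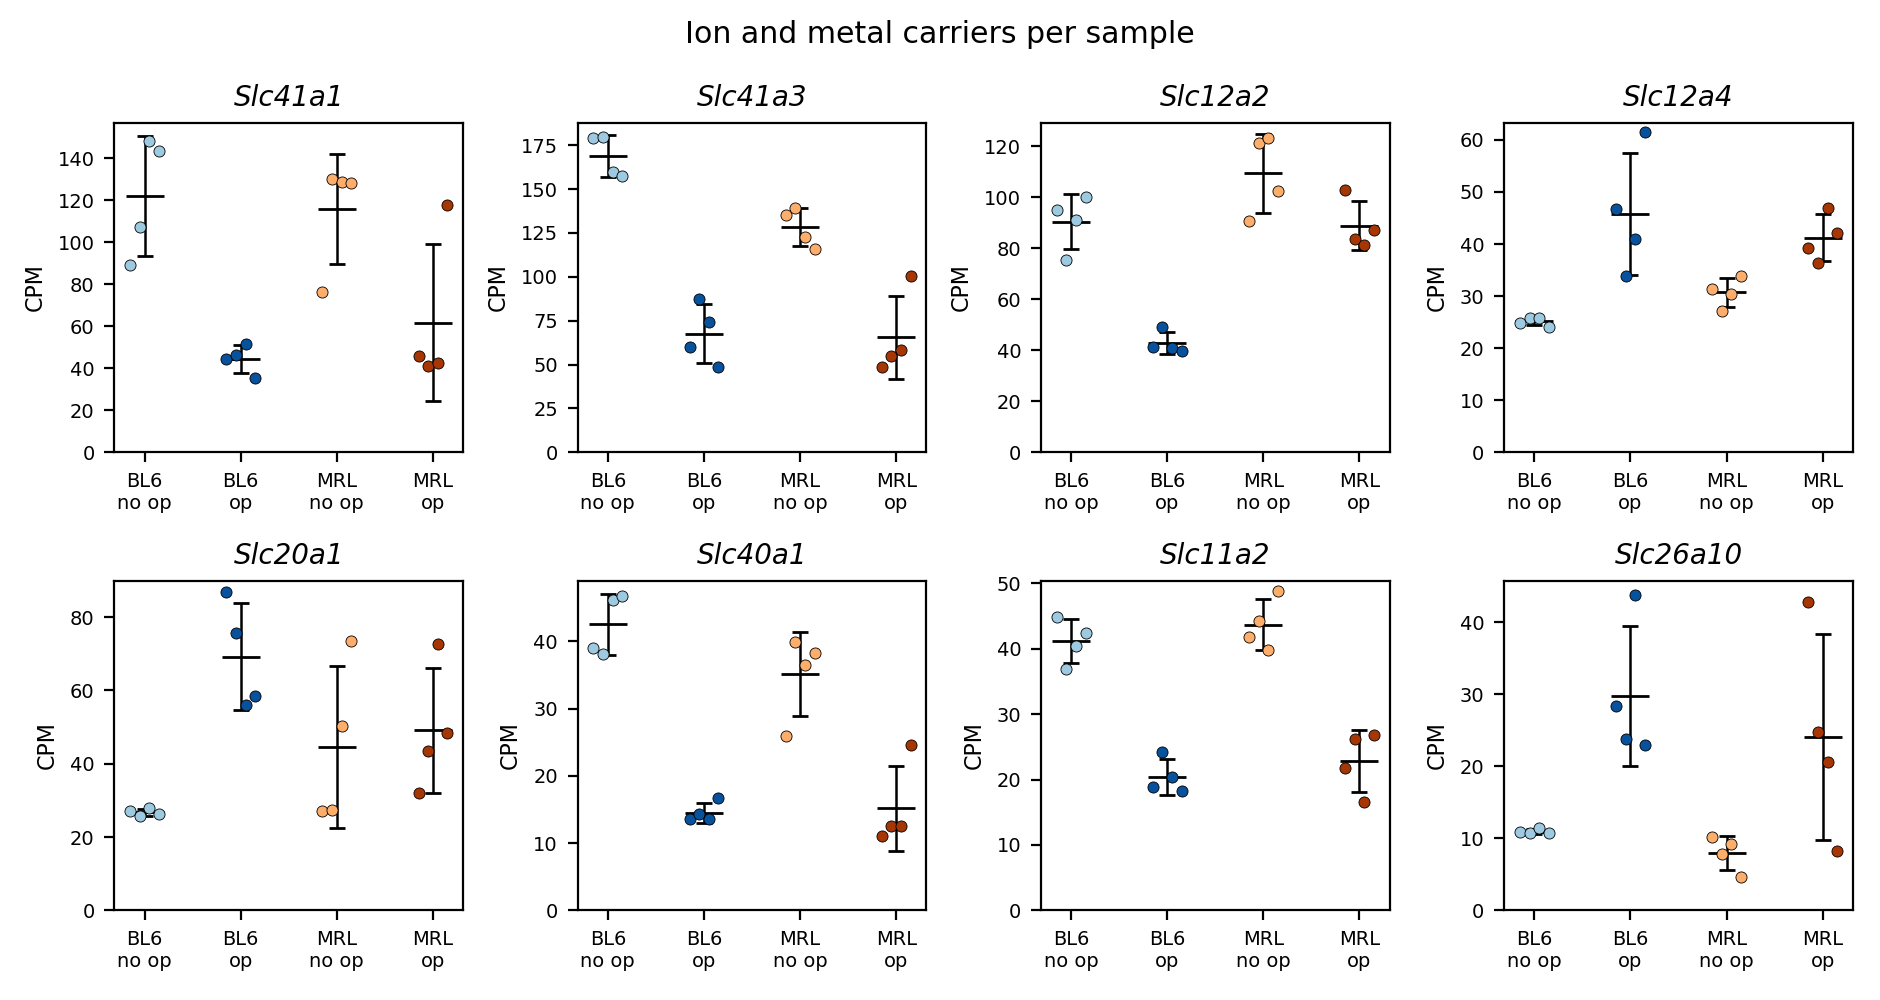
CPM of 8 ion and metal carriers in each of the 16 samples (points, 4 per group, linear axis from 0), with the group mean and SD as a bar. Operated BL6 samples of Slc12a2 (39.6 to 49.0 CPM) lie below all other samples, and Slc40a1 and Slc11a2 lie lower in the operated samples of both strains.

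Of 16 carriers of lipids, carnitine, choline and organic ions, 4 rose and 2 fell in BL6, and 4 rose and none fell in MRL. The shares called were 37.5% and 25%, below the 67.9% and 45% of all genes tested. The share that rose in MRL (25%) was near that of all genes (22.3%). The fatty acid carrier Slc27a1 (FATP1) measured -0.40 ± 0.20 and -0.19 ± 0.20 and was not called, though in BL6 it was called without unoperated BL6 replicate 1 or operated BL6 replicate 1 or 2 (adjusted p 0.0391 to 0.0425) and in MRL without the 3 libraries that stand apart, at -0.36 (adjusted p = 0.0480). The carnitine carrier Slc22a5 measured -0.17 ± 0.14 and -0.06 ± 0.14, also not called. Slc44a2, of the choline carrier family, fell in BL6 (-0.34 ± 0.13, adjusted p = 0.0289), a call lost without unoperated BL6 replicate 3 or 4 or operated BL6 replicate 1 or 4 (adjusted p 0.0557 to 0.0891). Slc22a23 fell in BL6 (-0.72 ± 0.18, adjusted p = 0.00265) and measured -0.23 ± 0.18 in MRL, and Slc47a1, an organic cation exporter, rose in MRL (0.38 ± 0.14, adjusted p = 0.0435), a call lost without unoperated BL6 replicate 2, 3 or 4, operated BL6 replicate 1, unoperated MRL replicate 1, 2, 3 or 4 or operated MRL replicate 1, 2 or 4 (adjusted p 0.0507 to 0.115). In the other strain Slc44a2 (MRL) measured -0.13 ± 0.13 and Slc47a1 (BL6) 0.10 ± 0.14, neither of them called.

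Of 11 carriers of nucleosides and nucleotide sugars, 2 rose and 2 fell in each strain (36.4% called, beside 67.9% of all genes in BL6 and 45% in MRL). Slc43a3, a purine nucleobase carrier, rose by 1.09 ± 0.29 (adjusted p = 0.00361) and 0.75 ± 0.29 (adjusted p = 0.0431), with the MRL call lost without unoperated BL6 replicate 1, 2, 3 or 4, unoperated MRL replicate 2, 3 or 4 or operated MRL replicate 1, 2 or 3 (adjusted p 0.0503 to 0.150). The adenosine carrier Slc29a1 (ENT1) rose in BL6 (0.38 ± 0.12, adjusted p = 0.0127), a call lost without operated BL6 replicate 4 (adjusted p 0.0597), and measured 0.07 ± 0.12 in MRL. Slc28a2, a concentrative nucleoside carrier, rose in MRL (0.81 ± 0.27, adjusted p = 0.0264), a call lost without unoperated MRL replicate 2 or 4 or operated MRL replicate 1, 2 or 3 (adjusted p 0.0665 to 0.0854), and measured 0.49 ± 0.27 (adjusted p = 0.121) in BL6, with adjusted p = 0.0224 there without operated MRL replicate 4. Slc35a4 fell, at -0.52 ± 0.14 (adjusted p = 0.00442) and -0.49 ± 0.14 (adjusted p = 0.0129). Of 6 genes listed in the vitamin class, 3 fell in BL6 and 1 in MRL (50% and 16.7%, beside 32.8% and 22.7% of all genes that fell), and none was called higher. Slc46a3, for which no vitamin substrate is given here, fell, at -1.05 ± 0.19 (adjusted p = 2.31e-04) and -0.64 ± 0.19 (adjusted p = 0.0140). It was the only MRL call of this class. The vitamin C carrier Slc23a2 (-0.58 ± 0.11, adjusted p = 3.78e-04) and the folate carrier Slc19a1 (-0.61 ± 0.19, adjusted p = 0.0103) fell in BL6, and Slc19a1 measured -0.44 ± 0.19 (adjusted p = 0.0731) in MRL, where it was called without operated MRL replicate 4 (adjusted p 0.00158). Slc23a2 measured -0.24 ± 0.11 (adjusted p = 0.0855) in MRL, or -0.32 (adjusted p = 0.0413) without unoperated MRL replicate 4.

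Among the 5 genes that are not carriers, 4 rose in BL6 and 2 in MRL (80% and 40%, beside 35.1% and 22.3% of all genes that rose). Slc9a3r2, the scaffold protein also known from blood vessels, went from 43.5 ± 6.75 to 132 ± 42.9 CPM in BL6 (SD, n = 4) and from 45.5 ± 6.61 to 99.3 ± 38.2 CPM in MRL, at 1.60 ± 0.28 (adjusted p = 1.73e-04) and 1.13 ± 0.27 (adjusted p = 0.00559). The summed endothelial markers were higher in the same groups, and their part was not tested. Slc2a4rg-ps, a pseudogene, rose by 1.08 ± 0.18 (adjusted p = 1.24e-04) and 0.69 ± 0.18 (adjusted p = 0.00749), and Slc7a6os by 0.34 ± 0.13 (adjusted p = 0.0302) in BL6, a call lost without unoperated BL6 replicate 3 or 4 or operated BL6 replicate 3 or 4 (adjusted p 0.0673 to 0.107).

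Between the strains, fewer carriers differed than after surgery. Among unoperated samples 3 of the 138 carriers were higher and 6 lower in MRL (6.52%), against 10.4% of all genes tested, and among operated samples 8 were higher and 6 lower (10.1%), against 12.9%. With library sizes scaled by total counts alone, the unoperated split was 7 higher and 4 lower, and that scaling moved the median of all genes from 0.01 to 0.15. Without the 3 libraries that stand apart, 17 carriers differed in unoperated (7 higher, 10 lower) and 21 in operated muscle (12 higher, 9 lower). Over all 11709 genes, 1670 and 1730 differed in that setting, against 1216 and 1507 with all 16 samples.

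Among called carriers the largest strain differences in operated muscle were in the peptide carrier family. Slc15a2 (PEPT2), which takes up di- and tripeptides (chr16:36750177-36784962), measured 7.54, 6.18, 0.211 and 11.3 CPM in unoperated BL6 and 0.978, 0.869, 1.06 and 0.515 CPM in unoperated MRL. After surgery, Slc15a2 measured 15.6, 53.7, 9.59 and 13 CPM in BL6 and 1.01, 0.936, 1.63 and 0.711 CPM in MRL. Unoperated BL6 replicate 3 lay below all of MRL, while after surgery all BL6 samples lay above all MRL samples. The log2 difference, MRL minus BL6, was -2.88 ± 0.78 (adjusted p = 0.0259) in unoperated and -4.42 ± 0.80 (adjusted p = 0.00151) in operated muscle. The former call was lost without unoperated BL6 replicate 4 or unoperated MRL replicate 1, 2, 3 or 4 (adjusted p 0.0513 to 0.0867). Slc15a2 rose after surgery in BL6 by 1.87 ± 0.69 (adjusted p = 0.0262), a call lost without unoperated BL6 replicate 2 or operated BL6 replicate 2 (adjusted p 0.0544 to 0.173; 1.02 without operated BL6 replicate 2). In MRL the surgery value was 0.32 ± 0.82 (adjusted p = 0.761).

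Slc15a5, another gene of the peptide carrier family (chr6:137983586-138079916), was higher in MRL. It measured 5.59, 3.57, 1.88 and 2.03 CPM in unoperated BL6 and 7.24, 9.58, 8.55 and 8.59 CPM in unoperated MRL. After surgery, Slc15a5 measured 0.161, 0.426, 0.107 and 0.171 CPM in BL6 and 1.58, 2.53, 1.10 and 4.0 CPM in MRL. All MRL samples lay above all BL6 samples of the same treatment, by 1.38 ± 0.40 (adjusted p = 0.0355) before and 3.42 ± 0.51 (adjusted p = 2.69e-04) after surgery; the former call was lost without unoperated BL6 replicate 2, 3 or 4 or unoperated MRL replicate 1, 2, 3 or 4 (adjusted p 0.0511 to 0.120). After surgery Slc15a5 fell in both strains, with log2 fold changes of -3.91 ± 0.51 (adjusted p = 2.69e-05) in BL6 and -1.87 ± 0.40 (adjusted p = 0.00322) in MRL, and the difference between strains was 2.04 ± 0.64 (adjusted p = 0.184).

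Slc39a2 (ZIP2), a zinc importer, measured 4.48, 4.95, 2.96 and 3.17 CPM in unoperated BL6 and 1.31, 1.07, 1.32 and 1.03 CPM in unoperated MRL. After surgery, Slc39a2 measured 5.73, 5.85, 7.41 and 4.04 CPM in BL6 and 0.934, 1.35, 1.46 and 0.948 CPM in MRL. The strains did not overlap, at -1.71 ± 0.24 (adjusted p = 1.49e-04) and -2.29 ± 0.25 (adjusted p = 8.38e-06). The zinc carrier Slc30a2 (chr4:134343181-134354484) differed the other way. It measured 22.0, 8.98, 13.4 and 12.9 CPM in unoperated BL6 and 36.4, 44.9, 35.5 and 34.4 CPM in unoperated MRL. After surgery, Slc30a2 measured 5.81, 8.06, 4.15 and 2.81 CPM in BL6 and 14.3, 18.4, 13.6 and 23.8 CPM in MRL. Again no sample overlapped, at 1.40 ± 0.29 (adjusted p = 0.00462) and 1.76 ± 0.30 (adjusted p = 0.00102). Slc39a2 rose after surgery in BL6 (0.56 ± 0.23, adjusted p = 0.0387), a call lost without unoperated BL6 replicate 3 or 4 or operated BL6 replicate 1, 2 or 3 (adjusted p 0.0595 to 0.140), and measured -0.01 ± 0.25 in MRL.

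Slc7a8 (LAT2), a light chain for neutral amino acids (chr14:54722209-54781946), measured 14.9, 17.3, 18.3 and 16.6 CPM in unoperated BL6 and 7.58, 5.98, 7.19 and 6.04 CPM in unoperated MRL. After surgery, Slc7a8 measured 22.0, 29.6, 10.3 and 9.70 CPM in BL6 and 6.58, 5.86, 7.10 and 7.42 CPM in MRL. Every MRL sample lay below every BL6 sample, with differences of -1.32 ± 0.27 (adjusted p = 0.00445) and -1.40 ± 0.28 (adjusted p = 0.00289). In unoperated muscle the amino acid carriers Slc43a1 (-1.11 ± 0.23, adjusted p = 0.00465) and Slc7a6 (-0.59 ± 0.16, adjusted p = 0.0266) and the sugar phosphate carrier Slc37a2 (-1.39 ± 0.40, adjusted p = 0.0346) were also lower in MRL. The calls of Slc7a6 and Slc37a2 were lost without unoperated BL6 replicate 2, 3 or 4 or unoperated MRL replicate 1, 2 or 4 (adjusted p 0.0574 to 0.0845) for the former and without unoperated BL6 replicate 1, 2, 3 or 4 or unoperated MRL replicate 2, 3 or 4 (adjusted p 0.0620 to 0.112) for the latter. Slc35a1, which carries CMP-sialic acid into the Golgi, was higher in MRL by 0.44 ± 0.10 (adjusted p = 0.00732) and 0.43 ± 0.10 (adjusted p = 0.00838), and fell after surgery by -0.29 ± 0.10 (adjusted p = 0.0169) in BL6 and -0.30 ± 0.10 (adjusted p = 0.0226) in MRL, calls lost without operated BL6 replicate 1 (adjusted p 0.0605) and without unoperated MRL replicate 3 or operated MRL replicate 2 or 3 (adjusted p 0.0527 to 0.0813) respectively.

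In operated muscle, Slc12a2 was higher in MRL by 1.05 ± 0.13 (adjusted p = 2.99e-05), where it measured 88.7 ± 9.59 CPM against 42.7 ± 4.28 CPM in BL6 (SD, n = 4), and the unoperated difference was 0.27 ± 0.13 (adjusted p = 0.193), not called. Slc4a7 was higher in operated MRL by 0.95 ± 0.18 (adjusted p = 0.00265) and the zinc importer Slc39a10 by 0.46 ± 0.14 (adjusted p = 0.0372), and the latter call was lost without unoperated BL6 replicate 4, operated BL6 replicate 1, 2 or 3 or operated MRL replicate 1 or 2 (adjusted p 0.0511 to 0.104). Of the other 5 calls in operated muscle, all but Slc30a1 were named after their values were seen. Slc1a1, a glutamate carrier, was higher in MRL (0.77 ± 0.21, adjusted p = 0.0276; lost without operated BL6 replicate 3 or 4 or operated MRL replicate 1, 2 or 3, adjusted p 0.0627 to 0.0857), but its exons share 31.9% of their bases with 4430402I18Rik on the opposite strand. Slc30a1 was also higher (0.35 ± 0.10, adjusted p = 0.0248; lost without operated BL6 replicate 3 or operated MRL replicate 1, 2 or 3, adjusted p 0.0561 to 0.0802). Slc38a3 (-0.61 ± 0.16, adjusted p = 0.0215; lost without operated BL6 replicate 1 or operated MRL replicate 2, adjusted p 0.0609 to 0.0767), Slc10a6, a carrier of steroid sulfates (-1.08 ± 0.30, adjusted p = 0.0247; lost without operated BL6 replicate 1 or 2 or operated MRL replicate 1, 2 or 4, adjusted p 0.0539 to 0.0749, and 0.0589 without the 3 libraries), and Slc4a8, a bicarbonate carrier (-1.19 ± 0.34, adjusted p = 0.0288; lost without operated BL6 replicate 1 or 2 or operated MRL replicate 2 or 4, adjusted p 0.0561 to 0.109), were lower. Slc35a1 is given above.

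Whether surgery acted differently in the strains was tested as the MRL effect minus the BL6 effect. No carrier was called by edgeR's quasi-likelihood test, against 0.248% of all genes tested (29 genes). An unadjusted p under 0.05 in that test was found for 12 of the 138 carriers, beside 1843 of all 11709 genes, a smaller share among the carriers. DESeq2 called 1 carrier, Slc12a2, among 250 genes called in all, and limma voom called no carrier among 24 genes. The 5 carriers with the smallest p were Slc12a2 (0.78 ± 0.18, adjusted p = 0.0847), Slc15a5 (2.04 ± 0.64, adjusted p = 0.184), Slc20a1 (-1.23 ± 0.41, adjusted p = 0.202), Slc39a10 (0.52 ± 0.19, adjusted p = 0.237) and Slc15a3 (-2.76 ± 1.16, adjusted p = 0.278). Without operated BL6 replicate 2, Slc12a2 reached 0.85 (adjusted p = 0.0464). Slc39a10 was not called after surgery in either strain (-0.20 ± 0.14 in BL6 and 0.32 ± 0.14 in MRL), except in MRL without operated BL6 replicate 4 or operated MRL replicate 4 (adjusted p 0.0437 to 0.0469). Without unoperated MRL replicate 1 and the other 2 libraries that stand apart, the value of Slc15a3 was 0.06 in place of -2.76. A carrier called in 1 strain and not in the other is therefore not shown to differ between them.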

How the data were processed

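RNA from minced muscle was column-purified with DNase treatment and made into standard Illumina libraries, per the labels' protocols. The submitters' processing notes name FastQC, STAR, edgeR and the mm10 build, with no versions. The authors deposited 1 table of whole-number counts for 11710 genes in 16 samples, and tables of their own comparisons with log2 fold changes, p-values and FDR values per gene, which were used only to count shared calls.

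Samples were grouped by strain and surgery, 4 per group. Genes were kept with edgeR's filterByExpr (minimum count 10), leaving 11709. TMM library sizes and edgeR's quasi-likelihood test (edgeR 4.0.16, R 4.3.3) with 1 mean per group over all 16 samples gave every log2 fold change, with its SE, and the Benjamini-Hochberg adjusted p over all genes tested. Total counts of 24323862 to 43552964 set a floor of 0.0689 to 0.123 CPM for 3 counts, which covers counting error only. The code was tested on simulated data. Replicates differed by far more than counting noise (lowest chi-square per degree of freedom 14.8), so none was merged.

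Members and gene lists were chosen with earlier results of these data known. Genes were named by a rule: a core list, the up to 3 largest called rises and falls per class and strain at a mean of at least 5 CPM, the up to 5 largest called strain differences in each direction without overlap, and the 5 smallest interaction p-values. Slc1a1, Slc1a3, Slc1a4, Slc7a7, Slc10a6, Slc11a1, Slc19a1, Slc26a6, Slc31a1, Slc38a3, Slc39a7 and Slc4a8 were named outside it, after their values were seen. Gene coordinates are from GENCODE M21 (mm10, 138 of 138 IDs matched), and levels per kb use exonic length. Genes whose exons shared over 20% of their bases with another gene numbered 7 among the members. Alternatives were other scalings and filters, DESeq2 1.42.0, limma 3.58.1 (voom), fits of only the groups compared, a replicate block, a stricter threshold, leaving out each library and, added after seeing the data, leaving out 3 libraries. Results on some items are not reported here.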

Additional observations from a re-analysis of the deposited data

Results flagged for a closer look

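Across the named carriers and Slc13a3, 320 groups of 4 samples were looked at for a sample far from the other 3, and 26 (8.1%) held one. Independent, normally distributed values would give about 1 in 20. Some of these carriers were named after their values were seen, and all genes share the same libraries. The 8.1% is therefore not a test against that share. Values are CPM, with the range of the other 3 samples of the group in brackets. Operated MRL replicate 4 stood apart for Slc44a2 at 259.5 (213 to 217), Slc2a12 at 13.9 (7.70 to 8.12), Slc45a4 at 22.8 (14.3 to 15.1), Slc2a4rg-ps at 7.48 (12 to 12.9), Slc28a2 at 9.08 (25.1 to 26.8), Slc20a2 at 123 (56.0 to 64.8), Slc41a1 at 118 (40.9 to 45.9) and Slc40a1 at 24.6 (11.1 to 12.6). Unoperated MRL replicate 1 stood apart for Slc15a3 at 11.0 (0.452 to 0.894), Slc7a7 at 5.13 (1.46 to 1.54), Slc41a1 at 76.5 (128 to 130.0), Slc11a1 at 8.31 (1.48 to 2.0) and Slc13a3 at 80.7 (0.0271 to 0.226). Operated BL6 replicate 4 stood apart for Slc1a4 at 8.67 (1.20 to 2.33), Slc36a2 at 37.1 (2.09 to 6.22) and Slc11a1 at 9.21 (2.36 to 3.35). Operated BL6 replicate 2 stood apart for Slc15a2 at 53.7 (9.59 to 15.6) and Slc2a1 at 12.7 (20.9 to 21.3). Unoperated MRL replicate 4 stood apart for Slc38a2 at 239.7 (122 to 136) and Slc2a4rg-ps at 5.66 (7.40 to 7.55). Unoperated MRL replicate 3 stood apart for Slc38a9 at 13.2 (10.86 to 10.91). Operated MRL replicate 3 stood apart for Slc2a4 at 432 (556 to 575). Unoperated BL6 replicate 2 stood apart for Slc43a3 at 34.4 (41.1 to 41.9). Unoperated BL6 replicate 3 stood apart for Slc26a10 at 11.4 (10.7 to 10.8). Operated BL6 replicate 1 stood apart for Slc19a1 at 3.15 (4.24 to 4.46). Unoperated BL6 replicate 1 stood apart for Slc39a14 at 28.5 (18.6 to 19.5). Operated MRL replicate 4 held 8 of the 26 and unoperated MRL replicate 1 held 5, among them Slc15a3, Slc7a7 and Slc11a1, beside its summed macrophage markers of 134 CPM. Operated BL6 replicate 4, with 208 CPM of those markers, held 3. The part of other cells in these values was not tested.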

How the results depend on the processing

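The BL6 surgery count of 87 carriers lay between 65 and 88 under every alternative fit and between 80 and 92 with any library left out. The 65 came with the filter of at least 5 CPM, a mean that 110 of the 138 carriers reached. That filter left 9929 genes, of which 6795 were called, against 7950 of 11709 in the reported fit. With a library left out, 7189 to 8177 of all genes were called in BL6. The MRL count of 65 was 43 with total counts alone, 31 at an adjusted p under 0.01 and 41 to 73 with a library left out. Over all genes, MRL calls were 5272 in the reported fit, 3925 with total counts alone and 2715 at an adjusted p under 0.01. They were 3490 to 6145 with a library left out. The interaction count of 0 was 1 with DESeq2 (Slc12a2, among 250 genes called in all) and 0 to 1 with a library left out. The unoperated strain count of 9 was 14 with DESeq2, 28 with only the groups compared, 5 at an adjusted p under 0.01, 17 without the 3 libraries that stand apart and 5 to 13 with a library left out. Over all genes, 1216 calls became 1666 with DESeq2, 2438 with only the groups compared, 650 at an adjusted p under 0.01 and 1670 without the 3 libraries. They were 821 to 1572 with a library left out. The operated strain count of 14 was 9 at a mean of at least 5 CPM, 7 with only the groups compared, 8 at an adjusted p under 0.01 and 9 to 17 with a library left out. Over all genes, 1507 calls became 1244 at 5 CPM or more, 575 with only the groups compared and 748 at an adjusted p under 0.01. They were 1030 to 1842 with a library left out. With the replicate block, counts were 86, 59, 0, 9 and 14. Pearson's r of the deviations of same-numbered samples from their group means lay between -0.474 and 0.452. It was over 0.1 in 12 of 24 pairs. Differently numbered samples were not set beside these, so whether the replicate numbers pair the samples was not settled. The interaction has no fit with only the groups compared, since it needs all 4. Total-count scaling moved the all-gene median log2 value from 0.04 to 0.18 in BL6 surgery and from 0.01 to 0.15 between unoperated strains.

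Every value that changed sign was one not called in the reported fit. For surgery in BL6 these were, with total counts alone, Slc38a9 (0.0127), Slc2a8 (0.137) and Slc8a3 (0.0914), at 5 CPM or more Slc2a8 (0.0582) and Slc8a3 (0.0123), with limma voom Slc7a8 (-0.106), with the replicate block Slc8a3 (0.0437) and without the 3 libraries Slc8a3 (0.0108). For surgery in MRL they were Slc7a8 with RLE size factors (-0.0010) and DESeq2 (-0.0017), Slc39a2 with total counts alone (0.0340), Slc15a3 with limma voom (0.513) and the replicate block (0.0611), and without the 3 libraries Slc15a3 (1.61), Slc20a1 (-0.0409), Slc8a3 (-0.0291) and Slc39a2 (0.127). The interaction value of Slc15a3 was 0.0576 without the 3 libraries. With any library left out, BL6 surgery values ranged from -0.266 to 0.292 for Slc7a8, -0.0620 to 0.180 for Slc47a1, -0.0846 to 0.0479 for Slc2a8, -0.209 to 0.0974 for Slc8a3 and -0.218 to 0.0133 for Slc39a14. MRL surgery values ranged from -1.11 to 1.57 for Slc15a3, -0.0406 to 0.0984 for Slc38a9, -0.0405 to 0.0833 for Slc7a8, -0.157 to 0.0311 for Slc22a5, -0.110 to 0.496 for Slc20a1 and -0.134 to 0.0804 for Slc39a2. The cause of these changes was not tested. Of 2010 values of named carriers under other settings, 1852 kept direction and side of the threshold, 114 lost a call, 26 gained one and 18 changed sign. With 1 library left out, these numbers were 2750, 173, 24 and 29 of 2976.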
